A study of Mus musculus with 12 samples.

Results

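The comparison concerns follicular (FO) B cells of the mouse spleen from conditional knockout (CKO) mice, in which Zbtb24 is deleted in blood-forming cells, set against FO B cells of control mice. Its members are the 6 FO libraries of the study's 12 RNA sequencing libraries, 3 FO CKO and 3 FO Control, chosen by their labels. Every gene that passed a filter on low counts was tested. All mice were labelled C57BL/6, were 8 to 12 weeks old and carried VAVcre, a transgene that expresses Cre recombinase from a promoter active throughout the blood lineages. FO CKO mice carried VAVcre together with a conditional Zbtb24 allele and are labelled Zbtb24-/-. FO Control mice carried VAVcre alone and are labelled WT. The other 6 libraries are marginal zone (MZ) B cells under the same 6 animal numbers, 3 MZ CKO and 3 MZ Control, and serve here for scale, for a check of cell identity and to ask whether an effect differed between the cell types. FO and MZ B cells were separated from spleen with a magnetic isolation kit, so a bulk library also holds RNA of any cells carried over, and fewer cells of a type cannot be told apart from less RNA per cell. As VAVcre acts in all blood-forming cells, the B cells developed, and met other immune cells, without Zbtb24. Each library has its own animal number within the FO set, so a p-value measures the spread between libraries of 3 mice per group.

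FO B cells recirculate through the follicles of the spleen and lymph nodes and give most T cell-dependent antibody responses. ZBTB24 is a zinc finger protein that binds DNA near the start of a small set of genes and is best known for turning on Cdca7. CDCA7 brings the chromatin remodeller HELLS to DNA, and the pair help to keep DNA methylated. Loss of ZBTB24, CDCA7, HELLS or the methyltransferase DNMT3B causes ICF syndrome in humans, an immunodeficiency with low serum antibodies in which B cells are present.

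The 6 FO libraries held 38422705 to 43396215 reads in genes. They carried B cell and FO identity. Fcer2a (CD23) stood at 513 to 592 CPM in FO libraries, against 65.8 to 94.1 CPM in MZ libraries, and Cr2 (CD21), which is higher on MZ cells, at 716 to 1150 CPM in FO libraries, against 2440 to 3862 CPM in MZ libraries. CPM is the count relative to the reads in genes of its library, with trimmed-mean (TMM) factors set over the 12 libraries. The leading principal component of the FO libraries, with 34.9% of the variance, parted replicate numbers and not genotypes. FO CKO 2 scored 36.9 and FO Control 2 scored 25.5, while FO CKO 3 and FO Control 3 scored -32.2 and -32.5.

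Of 17777 genes tested with edgeR's quasi-likelihood test, 10 rose and 6 fell in FO CKO libraries at a Benjamini-Hochberg adjusted p under 0.05. These are 0.0563% of the genes tested for those higher and 0.0338% for those lower. The median log2 fold change over all genes tested was 0.01, and 90% of genes lay between -0.36 and 0.43. In none of the 16 did the FO CKO and FO Control libraries overlap, and 11 of the 16 are protein coding. Without overlap, 4.44% of all genes tested were higher and 4.88% were lower. DESeq2, an alternative count test, called 22 genes higher (0.134%) and 18 lower (0.11%), all 16 among them. With no filter on low counts, edgeR called 72 higher and 68 lower, with all 16 among them. With the replicate number as a block, 18 rose (0.101%) and 7 fell (0.0394%), again with all 16 among them.

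**Figure D1:**
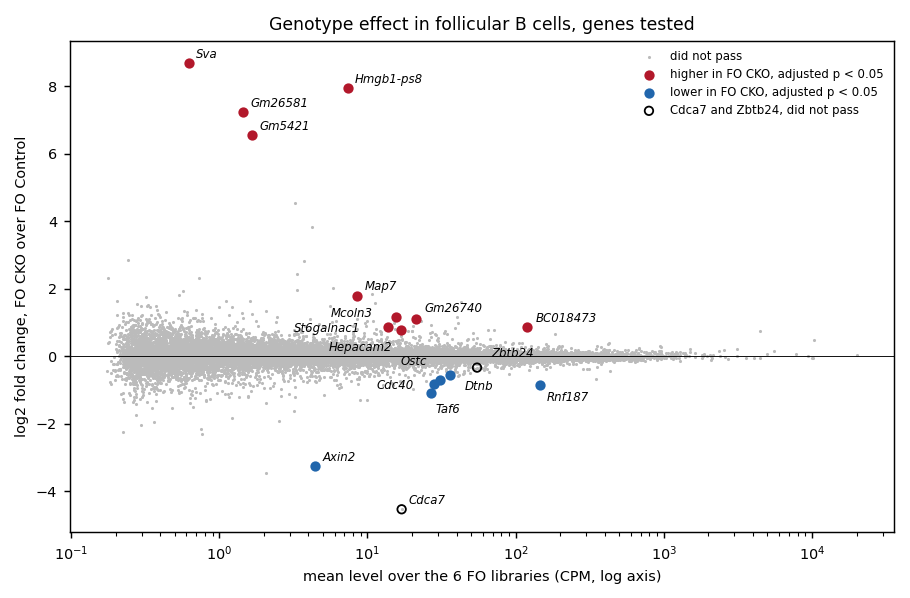
Each point is 1 of the 17777 genes tested; the horizontal axis is its mean level over the 6 FO libraries in CPM on a log axis, and the vertical axis is its log2 fold change, FO CKO over FO Control. Red and blue points are the 10 genes that rose and the 6 that fell; Cdca7 has the lowest fold change and, like Zbtb24, is circled because it did not pass.

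Zbtb24 (ENSMUSG00000019826, GRCm38 chromosome 10, 41450383 to 41465574), the targeted gene, was read in every FO CKO library. Its level was 48.3, 46.9 and 50 CPM in FO CKO libraries, against 62.5, 60.8 and 60.8 CPM in FO Control libraries. The groups did not overlap, but the difference did not pass in edgeR as first run (log2 -0.34, SE 0.06, adjusted p = 0.194). The difference passed in edgeR with no filter on low counts (adjusted p = 0.0102) and in DESeq2 (adjusted p = 0.00104). It did not pass with all 12 libraries in the fit (0.0948) or under the other alternatives. The counts are per gene, so reads from the part that Cre removes were not told apart from the rest, and the level checks the labels only in part. Of the 6 genes tested within 100 kb of Zbtb24, 0 passed. Among them Ak9 (log2 0.74) and Ccdc162 (log2 0.66) were higher without overlap, beside 4.44% of all genes tested. The other 4 overlapped.

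Cdca7 (ENSMUSG00000055612, chromosome 2, 72476159 to 72486893), the gene ZBTB24 is best known for turning on, was read at 1.01, 2.64 and 0.550 CPM in FO CKO libraries, against 31.6, 33.8 and 32.4 CPM in FO Control libraries. Every FO CKO library lay far below every FO Control library, while the FO CKO libraries differed among themselves, with FO CKO 2 the highest. The difference did not pass in edgeR with robust dispersions (log2 -4.54, SE 0.60, adjusted p = 0.564). It passed in edgeR without them (adjusted p = 0.0177), with all 12 libraries in the fit (0.0238), in limma-voom (0.00453) and in DESeq2 (6.38e-10). It did not pass in edgeR with other scaling (adjusted p = 0.569), with no filter on low counts (0.221) or with the replicate block (0.655). With FO CKO 2 left out it passed in edgeR as first run (adjusted p = 1e-05), and with any other 1 library left out it did not (up to 0.9997). FO CKO 2 was also the library with the highest summed level of 30 cell cycle genes, 1504 CPM, beside 789 and 738 CPM in FO CKO 1 and 3 and 878 to 1042 CPM in FO Control libraries. The part of this in the Cdca7 level was not tested. The other ICF genes did not pass. Dnmt3b was at 15.2, 14.8 and 14.3 CPM in FO CKO libraries and 14.5, 13.9 and 13.8 CPM in FO Control libraries (log2 0.08), and Hells at 14.1, 20.8 and 13.1 CPM in FO CKO libraries and 15.2, 15.5 and 17.4 CPM in FO Control libraries (log2 0.00). Among 21 tested genes of the DNA methylation machinery, 0 passed and the median log2 was -0.03. Of 25 germline genes kept silent by methylation, 7 passed the filter on low counts and 0 passed the test.

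The 6 genes that fell include a TFIID subunit, a splicing factor, a ubiquitin ligase and a glycosylation enzyme subunit, and the largest fall among them was that of Axin2. Axin2 (chromosome 11, 108920349 to 108950783) encodes a scaffold that promotes the breakdown of beta-catenin and is itself a classical Wnt target. It was at 0.693, 1.28 and 0.524 CPM in FO CKO libraries, against 7.96, 7.25 and 8.83 CPM in FO Control libraries. The groups lay far apart (log2 -3.26, SE 0.30, adjusted p = 0.00464), and with FO Control 1 left out the adjusted p was 0.0574. Gm11670 overlaps Axin2 on the other strand, so reads of the pair cannot be told apart.

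Taf6 (chromosome 5, 138178617 to 138187451) encodes a histone-fold subunit of TFIID, the complex that recognises core promoters. It was at 17.8, 16.8 and 17.4 CPM in FO CKO libraries, against 37.7, 38.4 and 34.1 CPM in FO Control libraries (log2 -1.08, SE 0.08, adjusted p = 0.000606). The 3 FO CKO libraries were nearly alike and lay below all FO Control libraries. Ap4m1, which overlaps Taf6 on the other strand, did not pass (log2 0.03).

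Cdc40 (chromosome 10, 40831621 to 40883311) encodes a splicing factor that acts at the second catalytic step. It was at 20.8, 21.5 and 18.5 CPM in FO CKO libraries, against 36.6, 36.1 and 34.9 CPM in FO Control libraries (log2 -0.82, SE 0.08, adjusted p = 0.00391). Rnf187 (chromosome 11, 58932288 to 58938916), an E3 ubiquitin ligase gene and the most abundant of those that fell, was at 95.6, 103 and 112 CPM in FO CKO libraries, against 191, 176 and 193 CPM in FO Control libraries (log2 -0.85, SE 0.07, adjusted p = 0.00112). Both genes stayed lower in every FO CKO library and kept their call without any 1 library.

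Ostc (chromosome 3, 130695912 to 130709444), a subunit of the oligosaccharyltransferase that attaches N-glycans, was at 23.8, 20.9 and 26.3 CPM in FO CKO libraries, against 35.7, 37.6 and 41.8 CPM in FO Control libraries (log2 -0.70, SE 0.10, adjusted p = 0.0439). Dtnb (chromosome 12, 3572381 to 3781796), which encodes beta-dystrobrevin of the dystrophin-associated complex, was at 29.9, 28.5 and 29.0 CPM in FO CKO libraries, against 45.5, 41.9 and 42.9 CPM in FO Control libraries (log2 -0.57, SE 0.07, adjusted p = 0.0131). These are the calls closest to the threshold among the lower genes, and most libraries are needed for them. Ostc missed the threshold without any library but FO CKO 3 (adjusted p up to 0.258), in limma-voom (0.14) and without robust dispersions (0.151). Dtnb missed it without FO CKO 1 or any 1 of the FO Control libraries (up to 0.0911).

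**Figure D2:**
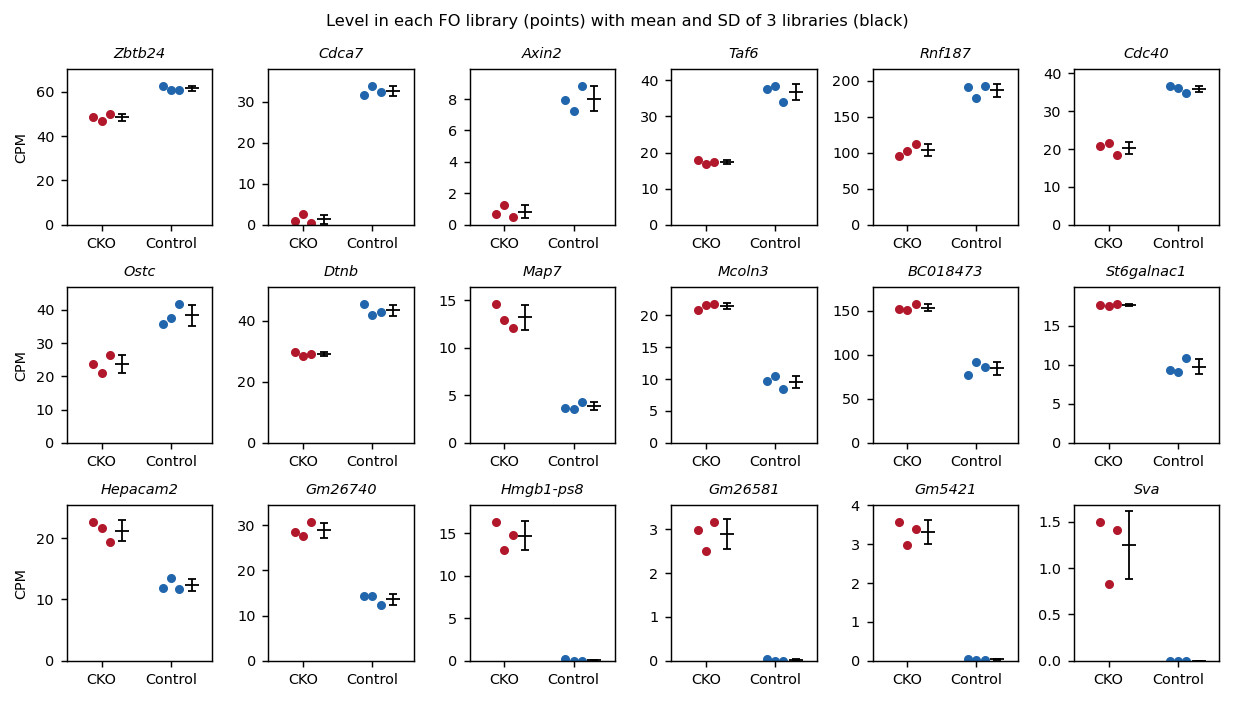
Each panel is a gene: Zbtb24, Cdca7 and the 16 genes that passed. Points are the level in CPM of each of 3 FO CKO (red, left) and 3 FO Control (blue, right) libraries, and black marks are the mean and SD (n = 3); each axis starts at 0. The groups do not overlap in any panel, and FO Control libraries lie at or near 0 for Hmgb1-ps8, Gm26581, Gm5421 and Sva.

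In the families of these genes no other member passed. Among 16 TFIID genes tested, 1 fell (Taf6) and 0 rose, with a median log2 of -0.04, and the other 15 lay between Taf3 (log2 -0.12) and Taf11 (log2 0.13). Among 12 oligosaccharyltransferase genes 1 fell (Ostc) and the median was 0.00, and among 16 second-step splicing genes 1 fell (Cdc40) and the median was -0.06. Among 28 genes of the Wnt pathway 1 fell (Axin2) and the median was -0.06. The Wnt genes Tcf7 (log2 -0.46) and Lef1 (log2 -0.25), which T cells express strongly, were lower in every FO CKO library without passing. T cell markers lay in the same direction, and their values are given further on. Of 7 genes reported as ZBTB24 targets in other cells, 4 fell (Axin2, Taf6, Cdc40 and Ostc), Cdca7 did not pass as described, Rnf169 was at log2 -0.12 and Camkmt at log2 0.44, neither passing. That list was drawn from published work on other cells, with earlier results of these data known, so its count of calls is only a description.

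The promoters of the genes that fell were searched for CAGGACCT, the core of the sequence that mouse ZBTB24 binds, on both strands (AGGTCCTG on the other). Promoters run from 250 bases before to 50 bases after a RefSeq start site on GRCm38.p6, and a position is that of the first base of a match with the start base as 0. Of 32851 promoters, 653 (1.99%) hold the motif. Of the 5 genes that fell and have a promoter there, Taf6, Cdc40, Rnf187 and Dtnb hold it and Axin2 does not, while 0 of the 5 genes that rose and have one hold it. Ostc was not matched. The sequences of these 4 promoters and of Cdca7 follow, 5′ to 3′ on the strand of the gene, since they show where the motif lies; capitals mark each match.
Cdca7 promoter, plus strand, chr2:72475969-72476268: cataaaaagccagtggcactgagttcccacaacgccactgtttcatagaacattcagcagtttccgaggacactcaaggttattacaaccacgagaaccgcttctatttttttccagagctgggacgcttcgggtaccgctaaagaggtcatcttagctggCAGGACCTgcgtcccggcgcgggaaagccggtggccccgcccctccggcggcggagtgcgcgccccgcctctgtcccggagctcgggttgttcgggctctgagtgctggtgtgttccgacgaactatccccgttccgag
Taf6 promoter, minus strand, chr5:138187177-138187476: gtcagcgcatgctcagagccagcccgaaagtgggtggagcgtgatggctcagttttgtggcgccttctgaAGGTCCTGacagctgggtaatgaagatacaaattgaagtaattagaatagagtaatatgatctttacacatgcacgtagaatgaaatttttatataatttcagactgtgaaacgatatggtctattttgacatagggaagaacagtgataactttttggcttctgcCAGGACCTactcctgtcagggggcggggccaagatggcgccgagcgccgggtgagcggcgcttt
Cdc40 promoter, minus strand, chr10:40883094-40883393: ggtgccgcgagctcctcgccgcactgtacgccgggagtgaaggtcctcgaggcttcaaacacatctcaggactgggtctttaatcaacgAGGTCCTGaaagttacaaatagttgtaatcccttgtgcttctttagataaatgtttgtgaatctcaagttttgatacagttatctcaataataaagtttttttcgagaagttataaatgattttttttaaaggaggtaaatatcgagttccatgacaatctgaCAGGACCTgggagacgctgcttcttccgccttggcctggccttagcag
Rnf187 promoter, minus strand, chr11:58938857-58939156: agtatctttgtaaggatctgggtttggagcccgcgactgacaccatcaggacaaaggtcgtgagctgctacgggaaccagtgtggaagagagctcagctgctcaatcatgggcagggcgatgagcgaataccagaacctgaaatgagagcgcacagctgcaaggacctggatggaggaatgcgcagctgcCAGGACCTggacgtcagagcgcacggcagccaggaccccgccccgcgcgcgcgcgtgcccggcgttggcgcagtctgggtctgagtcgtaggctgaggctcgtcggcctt
Dtnb promoter, plus strand, chr12:3572734-3573033: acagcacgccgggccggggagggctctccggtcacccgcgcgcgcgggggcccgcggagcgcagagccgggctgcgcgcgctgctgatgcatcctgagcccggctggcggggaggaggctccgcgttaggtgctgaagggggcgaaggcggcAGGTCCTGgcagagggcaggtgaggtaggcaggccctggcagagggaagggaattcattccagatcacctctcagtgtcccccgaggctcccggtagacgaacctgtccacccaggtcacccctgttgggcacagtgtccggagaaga

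The matches lie at -89 in Cdca7, at -180 and -14 in Taf6, at -161 and 2 in Cdc40, at -60 in Rnf187 and at -98 in Dtnb. Taf6 has 1 further start site and Dtnb 3 further start sites in RefSeq whose windows hold no match. Holding the motif did not go with a lower level in general. Of the 11208 genes tested that have a promoter in the table, 248 (2.21%) hold the motif, 4 of these fell and 244 were not called. Their median log2 fold change was 0.00, as it was for the genes without the motif, and 49.6% of them were negative, beside 50.1% of the others. Ranked by p among the 248, the leading 5 were Taf6, Rnf187, Cdc40, Dtnb and Cdca7. The next were Nlrc4 (log2 -0.44) and Adk (log2 0.50), neither passing (adjusted p = 0.734 and 0.871). Camkmt holds 2 matches, at 16 and 41 after its start. It was at 3.37, 4.08 and 4.61 CPM in FO CKO libraries, against 2.76, 2.87 and 3.27 CPM in FO Control libraries. Prepl is a prolyl endopeptidase-like gene that starts beside Camkmt on the opposite strand. It was at 15.4, 14.1 and 13.9 CPM in FO CKO libraries, against 20.7, 21.1 and 21.8 CPM in FO Control libraries. Prepl did not pass in edgeR as first run (log2 -0.55, SE 0.09, adjusted p = 0.112). It passed in edgeR with no filter on low counts (adjusted p = 0.00189), with all 12 libraries in the fit (0.0109) and in DESeq2 (0.000157).

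Of the 10 genes that rose, 5 lie within 2.2 Mb of chromosome 10, some 20 Mb from Zbtb24. Map7 (chromosome 10, 20148471 to 20281590), which encodes a microtubule-associated protein that recruits the motor kinesin-1, was at 14.6, 13.0 and 12.1 CPM in FO CKO libraries, against 3.71, 3.52 and 4.32 CPM in FO Control libraries (log2 1.78, SE 0.14, adjusted p = 0.00107). The antisense transcript Gm26740 (22187013 to 22302835) was at 28.4, 27.5 and 30.7 CPM in FO CKO libraries, against 14.2, 14.3 and 12.2 CPM in FO Control libraries (log2 1.09, SE 0.09, adjusted p = 0.00112). Both rose in every FO CKO library and kept their call without any 1 library.

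The processed pseudogene Hmgb1-ps8 (22262742 to 22263367) was at 16.3, 13.0 and 14.8 CPM in FO CKO libraries, against 0.149, 0.0239 and 0 CPM in FO Control libraries. In counts these are 1810 over the FO CKO libraries and 7 over the FO Control libraries, a ratio of 259 with a 95% exact binomial interval of 126 to 646. The lincRNA Gm26581 (22212653 to 22217241) had 355 counts in FO CKO libraries and 2 in FO Control libraries (ratio 178, interval 48.9 to 1476). The processed pseudogene Gm5421 (22343439 to 22345792) had 407 counts in FO CKO libraries and 4 in FO Control libraries (ratio 102, interval 39.6 to 376). These intervals cover counting error only. The 3 genes were therefore near silent in FO Control mice and read in all 3 FO CKO mice. Hmgb1-ps8 is a copy of Hmgb1, so its reads may in part come from other copies. It also lost its call without FO Control 2 (adjusted p = 0.135) and without each FO CKO library.

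Gm26740, Gm26581, Hmgb1-ps8 and Gm5421 overlap each other or the NKG2D ligand genes Raet1e and H60b in the annotation, and no strand setting is given, so their reads cannot be told apart with certainty. The stretch from Map7 to Gm5421 holds 21 genes tested, of which 5 rose and 0 fell. The 16 others had a median log2 of -0.02 and went both ways, from Gm1972 (log2 2.85, adjusted p = 0.202) to Gm19791 (log2 -1.05). Myb, Ahi1, Hbs1l and Bclaf1, which lie between, were within 0.1 of 0 on the log2 scale. Of the uncalled genes within 100 kb of Gm26740, Gm1972 was higher without overlap and Gm26528 overlapped. Lower without overlap were Gm2539 (log2 -0.97), Gm19791, Gm7678 (log2 -0.69), E030030I06Rik (log2 -0.48), H60b (log2 -0.43) and C920009B18Rik (log2 -0.26). Of all genes tested, 4.88% were lower without overlap. Gm2539 passed narrowly in DESeq2 (adjusted p = 0.0498) and not in edgeR (0.295). Chromosome 10 held 6 of the 16 calls, 0.789% of its 760 genes tested, and the sixth is Cdc40, 0.6 Mb from Zbtb24. That chromosome also carries the targeted allele; linkage to it and the loss of ZBTB24 cannot be told apart in this design.

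**Figure D3:**
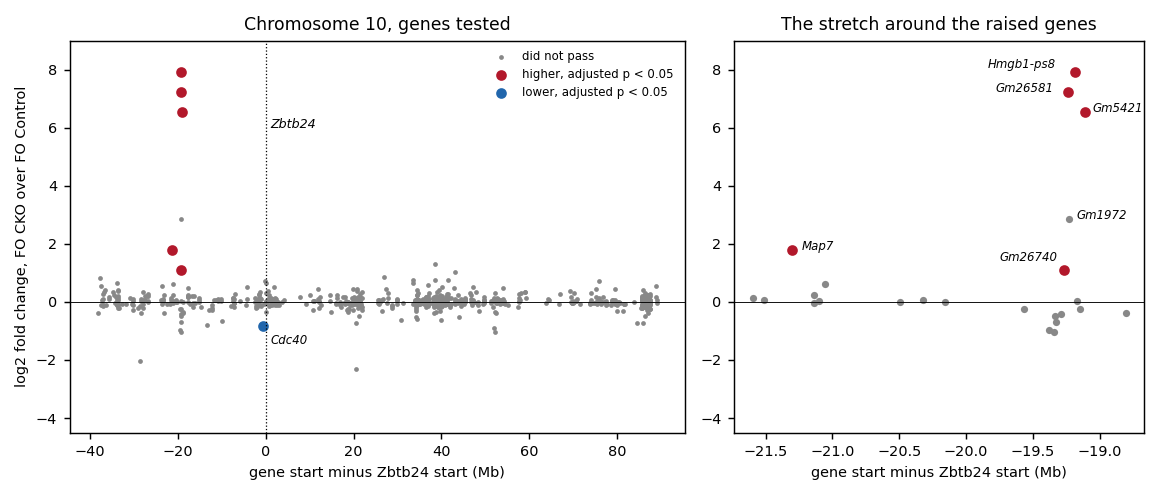
Log2 fold change, FO CKO over FO Control, of the 760 genes tested on chromosome 10 (left) and of those in the stretch around Map7 and Gm5421 (right), by the distance of the gene's start from that of Zbtb24 in Mb. Red genes rose, the blue gene fell, and grey genes did not pass; the 5 that rose lie between -21.3 and -19.1 Mb, among genes that went both ways.

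Outside chromosome 10, Mcoln3 (chromosome 3, 146117450 to 146141806) rose. It encodes TRPML3, a cation channel of endosomes and lysosomes. It was at 20.9, 21.7 and 21.8 CPM in FO CKO libraries, against 9.71, 10.4 and 8.49 CPM in FO Control libraries (log2 1.17, SE 0.11, adjusted p = 0.00165). Its neighbour Mcoln2, 8.03 kb away and encoding TRPML2, was at 65.3, 56.7 and 70.0 CPM in FO CKO libraries, against 45.8, 40.4 and 32.5 CPM in FO Control libraries. That difference did not pass in edgeR as first run (log2 0.70, SE 0.13, adjusted p = 0.475) or with the replicate block (0.494). It passed in edgeR with no filter on low counts (adjusted p = 1.52e-13) and in DESeq2 (5.57e-05). Mcoln1, on another chromosome, was at 41.2, 46.5 and 51.6 CPM in FO CKO libraries, against 39.8, 38.3 and 33.9 CPM in FO Control libraries, and did not pass (log2 0.32, adjusted p = 0.9995). All 3 mucolipin genes were higher in FO CKO libraries without overlap, beside 4.44% of all genes tested. Among 8 endolysosomal cation channels 1 rose, and the median log2 was 0.10. The two-pore channels Tpcn1 and Tpcn2 and Tmem175 lay between log2 -0.04 and 0.10.

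St6galnac1 and the transcript BC018473, 5.65 kb apart on chromosome 11, both rose. St6galnac1 (116765025 to 116775507) encodes an enzyme that adds sialic acid to the first sugar of O-glycans. It was at 17.7, 17.5 and 17.8 CPM in FO CKO libraries, against 9.31, 9.09 and 10.8 CPM in FO Control libraries (log2 0.86, SE 0.11, adjusted p = 0.0152). Its call was lost without robust dispersions (adjusted p = 0.0504) and without FO CKO 1, FO Control 1 or FO Control 2 (up to 0.135). BC018473 (116752167 to 116759373), annotated as antisense, was at 152, 151 and 158 CPM in FO CKO libraries, against 76.6, 91.6 and 85.5 CPM in FO Control libraries (log2 0.86, SE 0.07, adjusted p = 0.00112). Some genes nearby also lay higher in every FO CKO library. St6galnac2, a related enzyme gene 57.3 kb from BC018473, was at 36.1, 41.1 and 47.9 CPM in FO CKO libraries, against 21.4, 26.3 and 27.7 CPM in FO Control libraries. It did not pass in edgeR as first run (log2 0.73, adjusted p = 0.214). It passed with the replicate block (adjusted p = 0.00734), with no filter on low counts (1.05e-11) and in DESeq2 (4.73e-05). The pseudogene Gm11735, 2.33 kb from BC018473, was at log2 0.97 (adjusted p = 0.194; 0.00187 in DESeq2). Of the 10 genes tested within 100 kb of BC018473, 5 were higher without overlap, beside 4.44% of all genes tested, and the median log2 of the 10 was 0.42. The other 5 overlapped. Among them were Mxra7 (43.7 kb away, log2 0.39), Jmjd6 (78.1 kb, log2 0.10), Mettl23 (83.9 kb, log2 -0.18) and Srsf2 (90.5 kb, log2 0.07). Of 15 sialyltransferase genes tested 1 rose and the median log2 was 0.07. St6gal1, the enzyme that makes the CD22 ligand on B cells, did not pass (log2 -0.12).

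The remaining genes that rose were Hepacam2 and Sva, both on chromosome 6. Hepacam2 (3457096 to 3498298), which encodes a membrane protein of the immunoglobulin superfamily, was at 22.6, 21.6 and 19.4 CPM in FO CKO libraries, against 11.9, 13.5 and 11.8 CPM in FO Control libraries. It passed (log2 0.78, SE 0.10, adjusted p = 0.0286). It missed the threshold without any library but FO CKO 3 (adjusted p up to 0.206), in limma-voom (0.0775) and without robust dispersions (0.0968). Sva (42038394 to 42042851), which encodes seminal vesicle antigen, had 154 counts in FO CKO libraries and 0 in FO Control libraries. Against a floor of 3 counts over the FO Control group it was at least 51.5-fold higher. Its level was 1.5, 0.831 and 1.42 CPM in the FO CKO libraries.

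DESeq2 called 24 genes that edgeR as first run did not, and 19 of them meet the rule for naming them. Among those higher, Il5ra, the alpha chain of the interleukin 5 receptor, was at 30.6, 27.1 and 34.9 CPM in FO CKO libraries, against 12.0, 13.3 and 19.8 CPM in FO Control libraries (log2 1.04, adjusted p = 0.732 in edgeR, 4.94e-06 in DESeq2 and 0.00822 in edgeR with the block). The shared beta chain genes did not follow it, with Csf2rb at log2 -0.15 and Csf2rb2 at log2 -0.56, neither passing. Cd36, a fatty acid and scavenger receptor gene, was at 41.0, 52.8 and 54.8 CPM in FO CKO libraries, against 20.2, 29.6 and 34.5 CPM in FO Control libraries (log2 0.82, adjusted p = 0.9995 in edgeR, 0.00232 in DESeq2 and 0.00779 with the block). Crisp3, a secreted cysteine-rich protein gene, was at 16.3, 11.4 and 22.6 CPM in FO CKO libraries, against 3.41, 3.8 and 6.85 CPM in FO Control libraries (log2 1.84, adjusted p = 0.843 in edgeR and 0.00285 with the block). In all 3 genes every FO CKO library lay above every FO Control library.

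Gbp2b, an interferon-induced guanylate-binding protein gene, was at 7.11, 11.0 and 0.446 CPM in FO CKO libraries, against 0.299, 0.311 and 0.195 CPM in FO Control libraries. It was high in 2 of 3 FO CKO libraries only. Nxpe2 was likewise at 37.3, 41.0 and 22.9 CPM in FO CKO libraries, against 18.8, 21.6 and 21.4 CPM in FO Control libraries. Beside Mcoln2, St6galnac2 and Gm11735, described above, the rule also names the interferon-induced Oas1a (log2 1.21) and the neutrophil gene Retnlg (log2 1.11) among those higher.

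Of the genes called lower by DESeq2 and not by edgeR as first run, F2rl1 came nearest to the edgeR threshold. F2rl1 encodes the protease-activated receptor PAR2. It was at 4.27, 4.83 and 4.56 CPM in FO CKO libraries, against 8.11, 9.54 and 8.32 CPM in FO Control libraries (log2 -0.92, SE 0.14, adjusted p = 0.0653 in edgeR and 2.12e-05 in DESeq2). Beside Prepl, Zbtb24 and Cdca7, described above, the rule also names the neurotrypsin gene Prss12 (log2 -0.67), the small GTPase gene Arl4c (log2 -0.54), the anandamide hydrolase gene Faah (log2 -0.46), Cyp4f18 (log2 -0.42), which encodes a leukotriene hydroxylase, and Lat (log2 -0.40), the adaptor of the T cell receptor.

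Of all genes tested, 0.0563% were called higher and 0.0338% lower. At that share, short lists hold few calls or none, so a count of 0 does not set the B cell programme apart. Each of 13 pan-B cell genes, 29 genes of B cell receptor signalling, 14 inhibitory receptors, 16 BAFF and TNF family receptors and signalling genes, 14 MHC class II genes and 13 FO B cell markers had 0 members called, and the median log2 of each list lay between -0.06 and 0.02. Cd79a, a chain of the B cell receptor, was at 1074, 1013 and 1158 CPM in FO CKO libraries and 1197, 1104 and 966 CPM in FO Control libraries. The kinase gene Fyn was lower in every FO CKO library without passing (log2 -0.22, SE 0.07). Of 15 plasma cell genes, 24 genes of class switching and DNA end joining, 16 BCL2 family genes and 16 p53 targets, 0 were called, with medians from -0.02 to 0.03. Immunoglobulin constant genes (11 tested, median 0.06), endoplasmic reticulum chaperones (21, median 0.06), Toll-like receptors (20, median 0.06), immediate early genes (23, median 0.00), cytokine receptors (21, median -0.05) and chemokine receptors (14, median 0.02) had none either. MZ B cell markers (19, median 0.02) had 0 called. Of the 19, Cd36, Nebl (log2 0.78), Ackr3 (log2 1.14) and Mzb1 (log2 0.26) lay higher without overlap, beside 4.44% of all genes tested. The lists hold 598 distinct genes tested, of which 6 were called, in 7 of 38 lists.

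**Figure D4:**
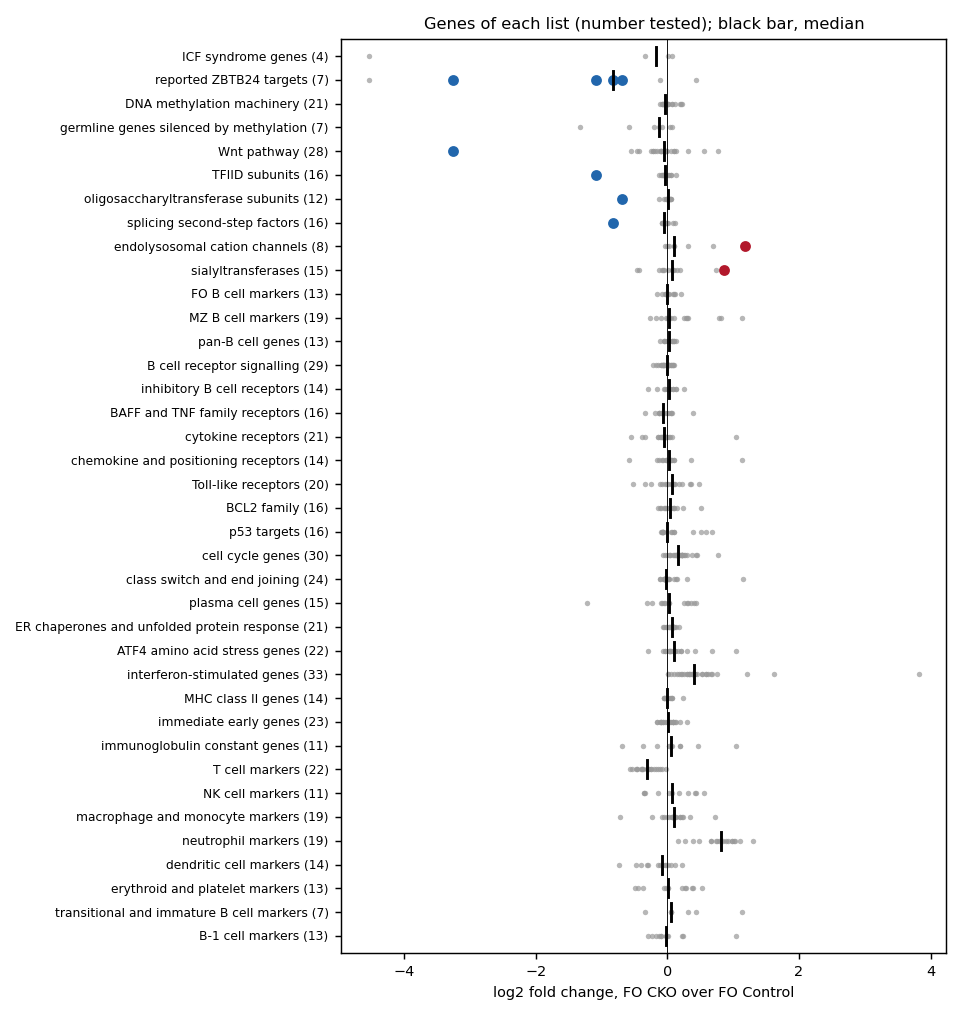
Log2 fold change, FO CKO over FO Control, of each tested gene of the 38 lists, with the number tested in brackets. Red and blue points passed, grey points did not, and black bars are medians; the calls stand apart from the other members of their lists, and the neutrophil, interferon and T cell lists have medians of 0.82, 0.40 and -0.30.

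In 3 lists every tested member lay on 1 side of 0 without a member called. All 22 T cell markers had a negative log2 fold change (median -0.30). Of the 22, 12 lay lower without overlap, beside 4.88% of all genes tested. Members of a list are read in the same 6 libraries, so they are not separate observations. Their summed level was 955, 954 and 732 CPM in FO CKO libraries, against 1012, 1138 and 1103 CPM in FO Control libraries. The sums did not overlap. Thy1, a T cell surface protein gene, was at 36.1, 34.4 and 26.3 CPM in FO CKO libraries, against 41.2, 47.3 and 45.2 CPM in FO Control libraries (log2 -0.46). None of the defining T cell markers was at 0. The part of T cell RNA in Axin2, Tcf7, Lef1 and Lat was not tested.

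All 19 neutrophil markers had a positive log2 fold change (median 0.82), 1 of them, Retnlg, without overlap, beside 4.44% of all genes tested. Their sums overlapped, at 188, 549 and 309 CPM in FO CKO libraries, against 141, 295 and 210 CPM in FO Control libraries. Within each replicate number FO CKO was the higher, and with the number as a block the calprotectin genes S100a8 (log2 0.73, adjusted p = 0.0492) and S100a9 (log2 0.77, adjusted p = 0.00417) passed. The part of neutrophil RNA in Crisp3, Cd36 and Retnlg was not tested.

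All 33 interferon-stimulated genes had a positive log2 fold change (median 0.40). Of the 33, Oas1a, Oas1g and Ifi44 were without overlap, beside 4.44% of all genes tested. Their sums overlapped, at 1604, 2602 and 2295 CPM in FO CKO libraries, against 1853, 1614 and 2014 CPM in FO Control libraries. Ifi44 was at 4.11, 18.4 and 1.26 CPM in FO CKO libraries, against 0.299, 0.526 and 0.854 CPM in FO Control libraries (log2 3.82, SE 1.26, adjusted p = 0.9995). Of 30 cell cycle genes 27 were positive (median 0.17), but 0 were without overlap, and with the block the median was -0.01. Of 22 amino acid stress genes driven by ATF4, 18 were positive (median 0.10) and Asns, asparagine synthetase, passed with the block only (log2 1.07, adjusted p = 0.0264). Macrophage markers (19 tested, median 0.10), NK cell markers (11, 0.07), dendritic cell markers (14, -0.08), erythroid and platelet markers (13, 0.01), transitional B cell markers (7, 0.06) and B-1 cell markers (13, -0.02) had 0 called.

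**Figure D5:**
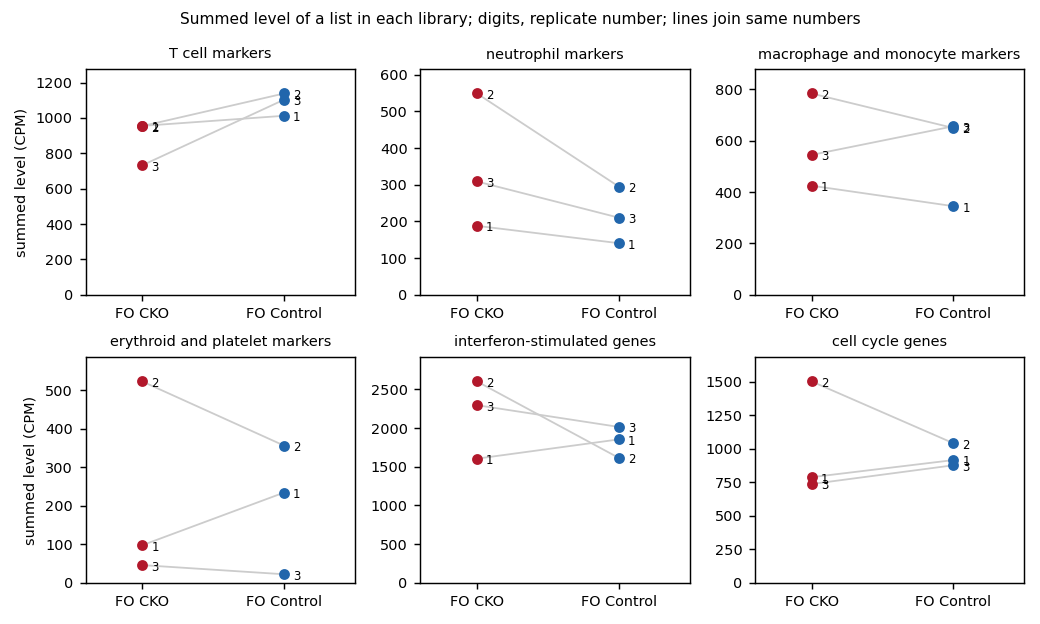
Summed level in CPM of 6 gene lists in each FO CKO (red, left) and FO Control (blue, right) library; digits are replicate numbers and grey lines join the same number. T cell sums are lower in all FO CKO libraries (732 to 955 CPM) than in FO Control libraries (1012 to 1138 CPM), while the other 5 lists overlap, and FO CKO 2 has the highest neutrophil, macrophage, erythroid, interferon and cell cycle sums.

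The genotype effect was then set against that in MZ B cells. A fit of all 12 libraries without the animal number treated the FO and MZ libraries of the same animal number as independent. In it, 0 of 18546 genes (0.0%) passed for a difference between the effects. An unadjusted p under 0.05 was found for 238 genes by edgeR and 184 by DESeq2, which also called 0. All 16 genes had the same sign in MZ B cells. The estimates were close for BC018473 (log2 0.86 in FO and 0.89 in MZ, difference -0.03, SE 0.10), Dtnb (-0.57 in FO and -0.56 in MZ, difference -0.02, SE 0.09) and Ostc (-0.70 in FO and -0.75 in MZ, difference 0.05, SE 0.15). They were further apart for Rnf187 (-0.85 in FO and -0.42 in MZ, difference -0.43, SE 0.11) and Map7 (1.78 in FO and 1.08 in MZ, difference 0.70, SE 0.20), neither passing. With the animal number as a block, 4 genes passed for the difference (0.0216%), among them Mcoln3 and Cdca7. Mcoln3 was at 61.2, 54.3 and 51.1 CPM in MZ CKO libraries, against 39.6, 44.4 and 37.7 CPM in MZ Control libraries, levels that lie above those of the FO libraries. Its effect was log2 1.17 in FO and 0.45 in MZ B cells.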

How the data were processed

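Per the labels, total RNA of isolated splenic B cells was made into TruSeq libraries. The authors deposited unnormalised read counts for Ensembl genes, and the submitters' processing notes name TopHat, HTSeq and DESeq2 on GRCm38 (mm10); versions, strand setting and annotation release are not given in the sources used here. The file lists 46078 genes, 45229 with a symbol in Gencode M21, and 5 entries that name no gene, which held 43.2 to 49.0% of listed reads in FO libraries and were left out. The count test was that of edgeR 4.0.16 under R 4.3.3 (filterByExpr, TMM, quasi-likelihood F test with robust dispersions, two-sided, Benjamini-Hochberg adjusted over all genes tested) on the 6 FO libraries. DESeq2 1.42.0, limma-voom (limma 3.58.1), other scaling, no filter, all 12 libraries, a replicate block and each library left out were alternatives. SE is the absolute log2 fold change over the square root of F. The scripts were tested on simulated data. Samples were grouped by title and genotype.

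Replicate numbers are shared by FO CKO and FO Control in the labels. Deviations from the group means of same-numbered libraries correlated at 0.10, 0.34 and 0.39, and those of other pairs at -0.36 to 0.01. Deviations cancel within a group, so these correlations are not independent of each other. The labels do not say that a number pairs a CKO with a control mouse. The main test therefore used no block and ignores any such pairing, and the fit with the replicate block is given as an alternative. FO and MZ libraries share animal numbers, which is read as the same mouse.

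Named genes are Zbtb24, Cdca7, all genes called, and the called members of each list or the 2 with the smallest p. Also named are up to 10 per direction called by DESeq2 and not by the main edgeR fit (at least 5 CPM, no overlap). Any other gene was picked with its values in view. The gene lists and members were chosen with earlier results of these data known, so no list was tested as a set. Floors use 3 counts over a group. Like the binomial intervals, they account for counting error alone, as the reads carry no molecular identifiers.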

Additional observations from a re-analysis of the deposited data

Results flagged for a closer look

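With the animal number as a block, 4 genes passed for a difference between the genotype effects in FO and MZ B cells, and each is given as FO minus MZ on the log2 scale. Without the block the adjusted p was 1 for all 4. Mcoln3 differed by 0.7173 (SE 0.11, adjusted p = 0.00254), with an effect of 1.17 in FO and 0.45 in MZ B cells. Cdca7 differed by -1.1407 (SE 0.17, adjusted p = 0.00254). It was at 2.76, 5.37 and 1.88 CPM in MZ CKO libraries, against 33.1, 42.5 and 33.7 CPM in MZ Control libraries, and in both cell types the CKO library of replicate 2 held the most.

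The histone genes Hist1h4a and Hist1h4j differed by -0.6309 (adjusted p = 0.0296) and -0.5435 (adjusted p = 0.0482). Hist1h4a was at 13.9, 32.6 and 14.1 CPM in FO CKO libraries, against 19.0, 24.8 and 18.1 CPM in FO Control libraries, and at 19.8, 44.0 and 17.7 CPM in MZ CKO libraries, against 15.4, 21.5 and 16.9 CPM in MZ Control libraries. Hist1h4j was at 18.3, 49.2 and 16 CPM in FO CKO libraries, against 23.8, 34.6 and 23.6 CPM in FO Control libraries, and at 28.5, 69.2 and 24.7 CPM in MZ CKO libraries, against 22.2, 38.3 and 24.5 CPM in MZ Control libraries. Their genotype effects in FO B cells were log2 -0.03 and 0.03, those in MZ B cells 0.60 and 0.52, and both were highest in replicate 2, as the cell cycle sums were. The part of that in the difference was not tested, and histone genes have near-identical copies, so their counts are uncertain.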

How the results depend on the processing

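Over the alternatives, the 16 called genes gave 208 values, of which 181 kept direction and call, 27 kept direction and missed the threshold and 0 changed sign. Map7, Rnf187, Sva, Mcoln3, Taf6, Cdc40, BC018473, Gm26581, Gm5421 and Gm26740 passed under every alternative run. Over all 85 named genes 1 value changed sign, that of Mcm2 without FO CKO replicate 2 (log2 -0.0006, and up to 0.3305 with another library left out). With no filter on low counts 72 genes were higher and 68 lower, the 16 among them and 9 outside the filter. DESeq2 gave 22 higher and 18 lower, and the replicate block gave 18 higher. The block ended no call among the 16. Leaving out each library gave 7 to 14 higher and 4 to 17 lower, the highest counts being those without FO CKO 3. For the difference between cell types, the animal block (mouse block) called 4 genes against 0, and leaving out each library called 0 in every case. The causes of these changes were not tested. At an unadjusted p under 0.05 there were 717 genes in FO B cells. At this depth 30333 genes had a count in an FO library and 17777 passed the filter.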

Other observations

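Without FO CKO 3, 15 further genes passed, and in 14 of them, all but Scn4b, FO CKO 3 lay nearer to the mean of the FO Control libraries than to that of FO CKO 1 and 2. They were found by leaving out that library, so their separation is a description, and all were chosen after their values were seen. On chromosome 4 they were Padi6, Cort, Arhgef16 and Samd11, which lie between 140727355 and 156255657. That chromosome holds 1064 of the 17777 genes tested in the main fit, and chromosome 9 holds 981. Cort, the gene of the neuropeptide cortistatin, was at 0.514, 0.756 and 5.79 CPM in FO CKO libraries, against 3.46, 2.75 and 4.71 CPM in FO Control libraries. Padi6, a peptidyl arginine deiminase gene, was at 0.112, 0.0756 and 2.12 CPM in FO CKO libraries, against 1.19, 1.84 and 1.80 CPM in FO Control libraries. On chromosome 9 they were Scn4b, Nxpe4 and Nxpe2, between 45138395 and 48400025. Nxpe2 and Nxpe4 overlap on opposite strands in the annotation, so their reads cannot be told apart with certainty.

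Eno1b, a gene close in sequence to Eno1, was at 1.16, 1.38 and 29.5 CPM in FO CKO libraries, against 15.2, 15 and 26.9 CPM in FO Control libraries. The MZ libraries of the same animal numbers, which that fit did not use, were at 0.968, 1.55 and 33.1 CPM for CKO, against 15.3, 16.2 and 28.9 CPM for Control. In MZ B cells Gbp2b was likewise high in CKO 1 and 2 only, at 17.1, 16.3 and 0.635 CPM in MZ CKO libraries, against 0.499, 0.293 and 0.705 CPM in MZ Control libraries. For Arhgef16 the level was 0, 0 and 2.04 CPM in MZ CKO libraries, against 3.44, 1.33 and 2.82 CPM in MZ Control libraries. Over the 15 genes, MZ CKO 3 was nearer to the MZ Control mean than to that of MZ CKO 1 and 2 in 14, again all but Scn4b.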
